A study of Mus musculus with 8 samples.

Results

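Chromatin regions of the mouse hippocampus that carried a strong peak in every one of 8 Sono-seq libraries were examined here, 540 of the 11304 regions in the deposited table (4.78%). They were chosen by the authors' peak heights as the regions with 8 carriers, a carrier being a library that has a strong peak in the region. Of 561 such regions, 21 that lie on chromosome 9 before position 3100000 were left out. The regions with 4 to 7 carriers, 10742 in all, served for comparison, and those with 7 carriers (2053) as the nearest neighbours. All mice were adult males of the C57BL/6J strain, 2 months of age, with no transgene or deletion named in the labels. In the conditioned group, 4 mice were handled for 3 days, received 1 foot shock (2 s, 1.5 mA) in a chamber and were dissected 30 min later. In the control group, 4 mice were handled alike and dissected at the same time of day without training. The labels place the mice in independent experiments on separate days, so libraries of a group differ by animal, day and library preparation, which cannot be told apart.

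In Sono-seq, crosslinked chromatin is sonicated and the fragments are sequenced without an antibody. Chromatin that is held open, as at active promoters and enhancers, breaks more easily under sonication than packed chromatin, so reads gather there. Reads also gather at sequence that is present in the genome in more copies than in the reference, whether or not that chromatin is open. Whether a given member is open or present in extra copies was not tested. Contextual fear conditioning pairs a chamber with a shock, and the hippocampus is needed to remember the chamber. The tissue was whole hippocampus, so a change in the mix of cells and a change of accessibility within cells cannot be told apart. Genes, promoters and sequences at the members were not analysed here, and all positions are on mm9 as deposited, where starts may be shifted by 1 against a browser.

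The set was limited by 2 libraries. A carrier was a library with a peak at a z score of at least 30, the authors' own measure of peak height, in all 11304 regions. A strong peak in both control replicate 1 and control replicate 3 was found in 838 regions, and 64.4% of these were members. By contrast, 5123 regions had a strong peak in each of the other 6 libraries, and only 10.5% of these were members. Among regions with 7 carriers, the missing library was control replicate 1 in 1346 (65.6%), control replicate 3 in 606 (29.5%) and conditioned replicate 2 in 81 (3.95%). Being carried by all 8 libraries therefore meant, for most members, having enough signal to pass in these control libraries. This is a property of the rule and carries no test.

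The strongest peak of a member had a median z of 38.0, 85.7, 41.8 and 70.9 in the control libraries, in the order of replicates 1 to 4 as in all lists of values here. The medians of the conditioned libraries were 83.2, 55.5, 109 and 136. Control replicates 1 and 3 sat just above the limit of 30, and conditioned replicate 4 was the highest library in 373 of the 540 members. The groups overlapped, and the library medians had a mean of 59.1 ± 23.0 in the controls and 96.0 ± 34.5 after conditioning (SD, n = 4 each). A z between 30 and 40 was found for 56.5% of members in control replicate 1 and 43.1% in control replicate 3. The shares were 16.9% in conditioned replicate 2 and 0.185% to 6.30% in the other 5 libraries.

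**Figure D1:**
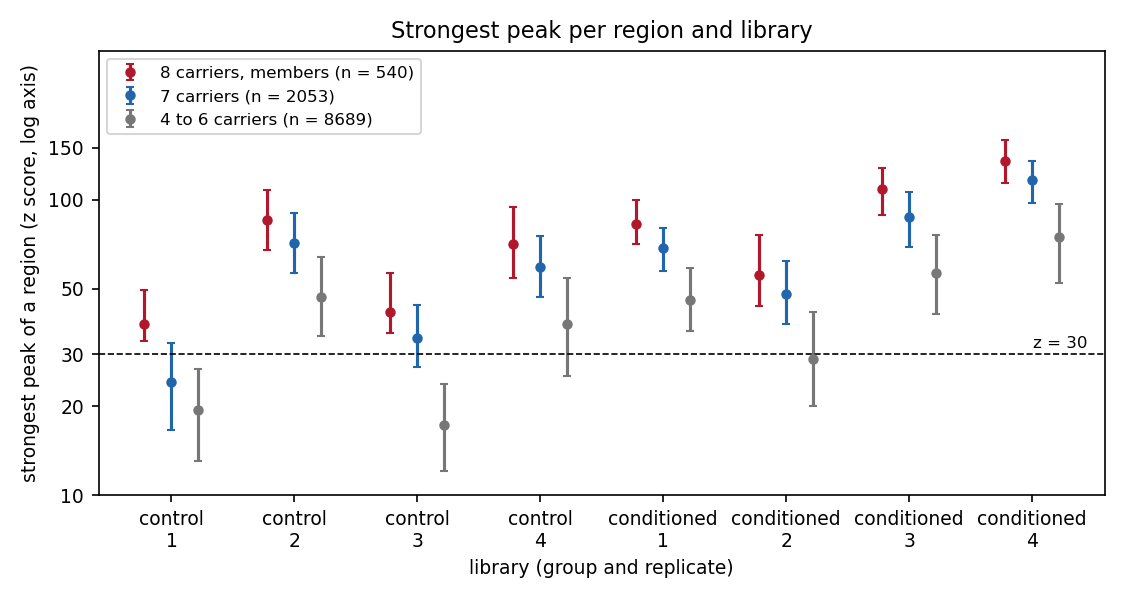
The plot shows the z score of the strongest peak per region (log axis) in each library, as median and quartiles over regions, for the members, for regions with 7 carriers and for regions with 4 to 6; the broken line is the limit of 30. In control replicate 1 the median was 38.0 for members and 24.1 for regions with 7 carriers, on either side of the limit, and in control replicate 3 it was 41.8 and 34.2.

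The lowest of a member's 8 strongest peaks had a median z of 34.9 and was under 40 in 405 members (75%). It belonged to control replicate 1 or 3 in 458 members (84.8%). Only 48 members reached a z of 60 in every library, and 30 reached 100. The members nearest above the limit were chr7:52949173-52949832 (lowest z 30.001, in conditioned replicate 2), chr5:145992154-145993257 (30.009, in control replicate 3) and chr9:36953886-36954785 (30.011, in control replicate 3). The nearest regions outside were chr16:35541160-35542223 (29.997, in conditioned replicate 2), chr4:155068512-155069222 (29.979, in control replicate 1) and chr8:26629041-26630322 (29.956, in control replicate 1). Values on both sides of the limit were thus nearly equal, and many regions with 7 carriers differed from members by 1 weak peak in 1 library.

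Members were wider and taller than regions with fewer carriers. Their median span was 1209 bp, against 984, 880, 750 and 756 bp in regions with 7, 6, 5 and 4 carriers. Their median mean z, the authors' mean over all strong peaks of a region, was 74.9, against 69.1, 63.3, 54.3 and 46.4. Every deposited region ran from 200 bp before its first to 200 bp after its last strong peak, so span grows with the number of strong peaks as a matter of construction, and these values carry no test. Per kb of span, the median library of a member had 839 reads, against 718, 591, 442 and 289 reads in regions with 7, 6, 5 and 4 carriers. Peak heights of the same libraries set the number of carriers, so this order too is a description. Between 3 and 4 log2 CPM, members had 708 reads per kb and regions with 7 carriers 758. Between 4 and 5 the order was the other way, with 982 in members and 866 in regions with 7 carriers.

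**Figure D2:**
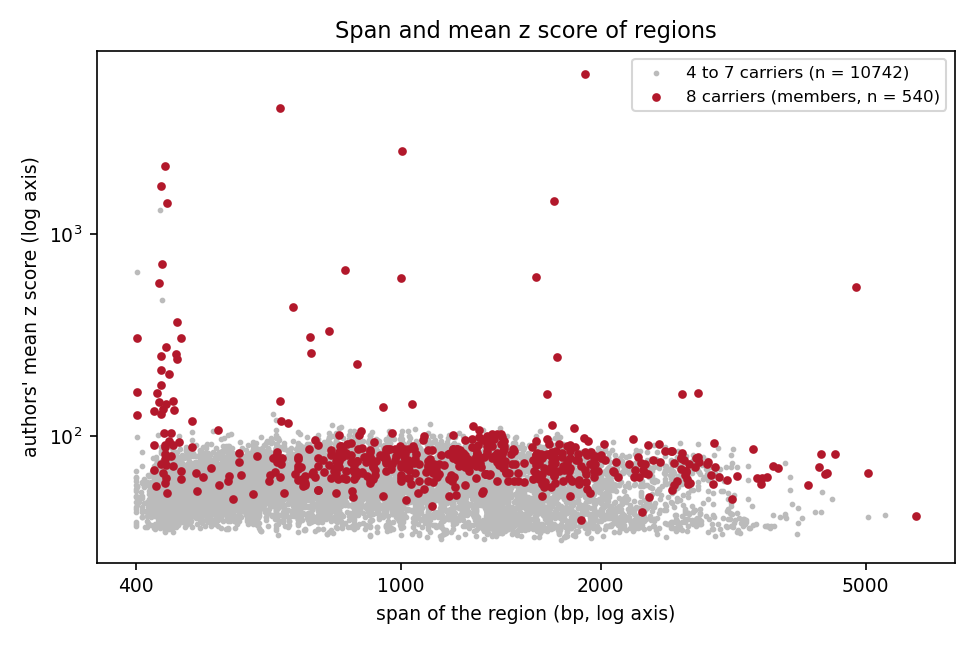
Each point is a region, with its span (bp, log axis) against the authors' mean z score (log axis); red points are the 540 members and grey points the 10742 regions with 4 to 7 carriers. Most members lie within the grey cloud, with a median mean z of 74.9, while 35 members and 3 grey points have a mean z of at least 150.

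High mean z scores were rare in regions with fewer carriers. A mean z of at least 150 was found in 35 members and in 3 of the 10742 regions with 4 to 7 carriers. The 22 regions of chromosome 9 before position 3100000, most of them left out by the rule, had a median of 371 (quartiles 282 and 409). The highest in a region with 7 carriers was 121. The 28 members with a mean z from 150 to 1000 had a median span of 464 bp, well under the 1209 bp of all members. The 7 members at 1000 or more had a median span of 659 bp. Of the 50 regions with the most reads in the whole table, 26 were members, 22 were the chromosome 9 regions before position 3100000, and 2 had fewer carriers. Seen from its width, the set held 34 members of 400 to 450 bp, the smallest widths that the construction of the regions allows, with a median mean z of 131. The 643 regions of that width with 4 to 7 carriers had a median of 52.4. Among the 260 members over 1000 and up to 2000 bp the median was 75. Some wide members were tall too, as those of 1891 bp and 4840 bp described below.

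The tallest member was chr2:98505835-98507726, with a mean z of 6209.7. Shares are given here of a library's counts over the 11304 regions, since its reads outside them were not analysed here. This member held 40.7%, 37.0%, 38.7% and 39.2% in the control libraries and 37.7%, 36.7%, 37.1% and 35.2% in the conditioned libraries. More than 1 in 3 of the counted reads thus fell in this one member, and the groups overlapped. The next, chr12:3109704-3110363 (mean z 4199.6), held 8.96%, 7.86%, 8.19% and 8.44% in control and 8.11%, 7.97%, 7.93% and 7.50% in conditioned libraries. A neighbour of the first, chr2:98502193-98503198 (2571), held between 4.64% and 5.72%, and chr9:35111535-35113235 (1464) between 1.88% and 2.40%. Such shares were nearly the same in all 8 libraries. The tallest member is a large part of the counts that it is divided by, so part of its evenness is built in. Intervals for these shares (95%, Clopper-Pearson) extended 0.0159 percentage points at most for all members together. They cover counting error only, because PCR copies cannot be told from separate molecules without molecular identifiers.

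The narrow tall members differed in evenness. The region chr13:77577981-77578419, 438 bp wide with a mean z of 708, held 0.491%, 0.440%, 0.484% and 0.481% of the counts in control and 0.451%, 0.485%, 0.439% and 0.427% in conditioned libraries, an even share. Less even was chr6:103598941-103599383 (442 bp, mean z 2173), with a lowest share of 0.826% (control replicate 4) and a highest of 1.84% (conditioned replicate 1). In contrast, chr8:125593958-125594404 (446 bp, mean z 1429) held 3.02% of the counts of control replicate 3 and between 0.00802% and 0.259% in the other 7 libraries. At chr8:128242572-128243008 (436 bp, mean z 1729) control replicate 3 was again highest with 1.51%, and the other libraries had 0.0316% to 0.409%. Every library passed the limit in both: the lowest strongest z was 295 in conditioned replicate 1 for the first and 583 in control replicate 2 for the second. The remaining members among the 10 with the highest mean z were chr2:98504635-98505459 (664; shares of 0.300% to 0.749%) and chr2:181746465-181748065 (611; 0.306% to 0.451%).

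The narrowest members were 3 regions of chromosome 9, each 401 bp wide: chr9:24346285-24346686, chr9:27020585-27020986 and chr9:115259785-115260186, with a mean z of 307, 165 and 127. Their strongest peaks started within 1 bp of each other in all 8 libraries. The next were chr1:124253519-124253944 and chr1:195053819-195054244, both 425 bp wide, with a mean z of 90.3 and 134. Peaks were listed in steps of 50 bp whose origin differed between libraries by 1 bp on chromosome 9 and by 25 to 39 bp on the other chromosomes. A width of 401 bp on chromosome 9 and of 425 bp on chromosome 1 is therefore 1 and the same step in all 8 lists, which was the case for 17 members (3.15%).

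The widest members held 16 or more strong peaks over the 8 libraries. The region chr3:105992967-105998917 spanned 5950 bp with 16 strong peaks and one of the lowest mean z scores, 40.3. The regions chr8:90481708-90486754 (5046 bp, mean z 65.9), chr11:3093681-3098182 (4501 bp, 81.6) and chr8:19945880-19950254 (4374 bp, 65.9) had 21, 23 and 25 strong peaks. The highest number, 32, was found at chr17:39979506-39984346 (4840 bp, mean z 548). This last member held 0.159%, 0.319%, 0.196% and 0.333% of the counts in control and 0.467%, 0.320%, 0.523% and 0.620% in conditioned libraries. Conditioned replicates 1, 3 and 4 were above every control library and conditioned replicate 2 was not.

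The rule did not use the place of the strongest peak, but region edges lie 200 bp outside the first and last strong peaks. The span of a member thus limits how far its strongest peaks can lie apart. In regions with fewer carriers, peaks of libraries that are not carriers do not set the edges, so the comparison is not like for like. In members, the start of the strongest peak moved over a median of 351 bp between libraries (quartiles 161 and 630 bp), close to the 350, 344, 324 and 373 bp in regions with 7, 6, 5 and 4 carriers. Because members were wider, this was 30.0% of the span, against 36.1%, 38.0%, 41.0% and 46.2%. A shift of at most 100 bp was seen in 16.1% of members, in 9.01% of regions with 7 carriers and in 13.0% of those with 4 to 7. In the members of 400 to 450 bp the median shift was 38.5 bp, about the offset between the lists, and in those over 2000 bp it was 1150 bp. In wide members the tallest point was thus at different places in different libraries. The contrast by width is largely set by how regions were built, so it is a description. The median shift was 284 bp without control replicate 1 and 299.5 bp without control replicate 3, the libraries with the lowest peaks.

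Members were found on all 19 autosomes of the table. Chromosome 11 held 56 (6.43% of its regions), chromosome 4 held 55 (6.88%) and chromosome 8 held 47 (6.90%), against 4.78% over the whole table. Chromosomes 3 and 14 held 15 each, 2.68% and 3.73% of their regions. At the start of chromosomes, before 4 Mb, lay 21 members (3.89%), against 0.968% of the regions with 4 to 7 carriers. Of these, 10 and 4 lay in the neighbouring stretches of chromosome 11 described below. The same members thus raise both the share of chromosome 11 and that of chromosome starts. The median distance from a member to the next member was 1047 kb, and 25 members (4.63%) had another within 10 kb. These formed 7 stretches, 3 of them with more than 2 members.

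The largest stretch was chr11:3067829-3100138, where 10 of 14 regions were members. Its members took 4.38, 5.17, 3.94 and 4.45 of every 10000 counts in control and 6.02, 4.16, 5.96 and 5.75 in conditioned libraries, 4.49 ± 0.511 against 5.47 ± 0.883 (SD, n = 4 each). The groups overlapped through conditioned replicate 2. Its 10 members had a log2 fold change below 0 with TMM factors (the scaling explained below), and 0 of them had one below 0 when scaled by totals, so no direction can be given for this stretch. A second stretch at chr11:3035379-3047440 held 4 members of 5 regions and took 0.844 ± 0.161 of every 10000 counts in the controls and 1.00 ± 0.212 after conditioning. The third, chr2:98502193-98507726, held the tallest member and 2 neighbours and took 4456 ± 173 against 4218 ± 165 of every 10000.

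Between libraries, levels were compared as CPM (reads per 1000000 counts over the 11304 regions) scaled by TMM factors, which set the bulk of regions equal between libraries instead of the totals. Total counts ran from 36786183 to 83233550 per library. The TMM factors were 0.332 and 0.509 in control replicates 1 and 3 and 1.03 to 2.01 in the other 6 libraries. The median count of a member was 336, 1356, 344 and 908 in control and 1124, 678, 1822 and 2662 in conditioned libraries, and the lowest of any member was 93. On this scale, the SD of log2 CPM over the 8 libraries had a median of 0.51 in members, against 0.62, 0.64, 0.73 and 0.90 in regions with 7, 6, 5 and 4 carriers. Between 3 and 4 log2 CPM it was 0.48 in 252 members and 0.60 in 1241 regions with 7 carriers, much the same gap. Between 4 and 5 it was 0.48 in 174 members and 0.53 in 255. Few regions with 7 carriers lay higher. From 5 to 6 the SD was 0.81 in 30 members and 0.52 in 5 such regions. At 6 or more it was 0.89 in 46 members and 0.89 in 3 such regions. A rule that asks for a peak in every library selects for evenness, so this is a description. Scaled by totals, the median SD of members was 0.93.

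The steadiest members were ordinary in height and of 1397 to 2900 bp. At chr5:33970943-33972654 (mean z 84.1) the level was 13.1, 14.6, 15.5 and 13.3 CPM in control and 16.2, 14.0, 15.9 and 16.4 CPM in conditioned libraries, an SD of 0.13 on the log2 scale. At chr9:94436635-94439535 it was 24.8, 32.9, 23.3 and 28.3 CPM in control and 26.0, 24.3, 25.1 and 26.7 CPM in conditioned libraries (SD 0.16). In both, groups overlapped and no library was far from all the others. At the first, conditioned replicate 2 (14.0 CPM) still stood apart within its own group, as given below. The other steady members, chr5:30439627-30441554, chr11:120644832-120646229 and chr8:11634091-11636591, also had an SD of 0.16, with levels between 11.7 and 29.9 CPM.

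The most variable members were narrow, with 1 exception. Besides the pair on chromosome 8 in which control replicate 3 was highest (SD 2.99 and 2.52), they were chr12:67800844-67801277 (433 bp, SD 1.89), chr8:36197741-36198189 (448 bp, SD 1.41) and the 2946 bp region chr13:120276369-120279315 (SD 1.39). At chr8:36197741 the control libraries had 48.8, 21.8, 30.6 and 7.25 CPM and the conditioned libraries 21.7, 129, 15.3 and 6.48 CPM. Conditioned replicate 2 alone was far above the rest there. By width, the median SD was 0.91 in the 34 members of 400 to 450 bp and 0.48 in the 260 members over 1000 and up to 2000 bp.

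Across the 514 members outside the 50 regions with the most reads, log2 CPM of a pair of conditioned libraries correlated with a median Pearson r of 0.715 (6 pairs, 0.669 to 0.795), that of a pair of control libraries with 0.660 (6 pairs, 0.508 to 0.713) and that of 1 of each with 0.676 (16 pairs). Members are not independent replicates, and pairs share libraries, depth and region width. Control replicate 1 correlated with the other 7 libraries at a median of 0.650 over members but at 0.138 over the 2053 regions with 7 carriers. The rule sets much of this contrast, since members must have a strong peak in that library and most regions with 7 carriers lack one there. In the 21 pairs without control replicate 1 the medians were 0.704 and 0.523.

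Members differed in which scale made the libraries alike. In 105 of the 540 (19.4%), the SD over libraries was smaller for the share of the library total than for CPM with TMM factors; in these the median SD was 0.46 on the first and 0.93 on the second. The same was seen in 4.68%, 5.71%, 17.6% and 37.8% of regions with 7, 6, 5 and 4 carriers. Over all 10742 regions with 4 to 7 carriers it was 16.6%, close to the share of members. Among members it was most frequent in those of 400 to 450 bp (30 of 34, 88.2%), in those among the 50 regions with the most reads (20 of 26, 76.9%) and in those that start before 4 Mb (16 of 21, 76.2%). It was also found in 22 of the 22 chromosome 9 regions before 3100000. These 105 members had a median span of 730 bp, against 1262 bp in the remaining members. The tallest member was among them, with an SD of 0.07 by share of total and 0.93 with TMM factors. Most were less even by share than this, as their median of 0.46 shows. Steadier is meant only between the 2 scales, and chr8:125593958 was also among them, with 2.68 by share and 2.99 with TMM factors.

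**Figure D3:**
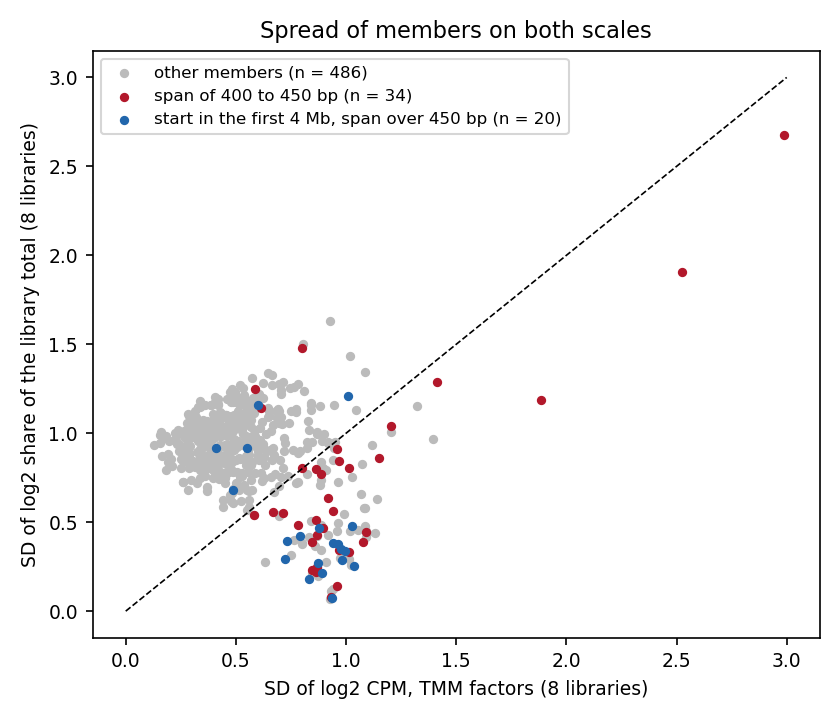
Each point is a member, with the SD over the 8 libraries of log2 CPM with TMM factors against the SD of its log2 share of the library total; red points span 400 to 450 bp, blue points start within the first 4 Mb of a chromosome and are wider, and the broken line marks equal SD. Most of the red and blue points lie below the line, and most of the grey points above it, as 105 of 540 members were steadier by share of total.

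The study compared accessibility 30 min after training with that of untrained mice. No member was called by the quasi-likelihood test of edgeR, adjusted by Benjamini-Hochberg over all 11304 regions. In this test 0 of 540 members had an adjusted p below 0.05 (0% over the table), and the smallest adjusted p was 0.605. With 4 libraries per group, this does not show that no member changed. At an unadjusted p below 0.05 there were 42 members (7.78%, against 7.79% over the table). Of these, 3 were higher after conditioning (0.556%, against 1.76%) and 39 lower (7.22%, against 6.03%). The share is that of the background. DESeq2's Wald test called 1 member (0.359% over the table), and edgeR on totals called 4 (0.0531% over the table).

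The median log2 fold change of members, conditioned over control, was -0.14, against -0.01, 0.10, -0.08 and -0.30 in regions with 7, 6, 5 and 4 carriers and -0.05 over all regions. A value below 0 was found in 62.4% of members, against 53.6% over the table. The members that were steadier by share of total had a median of -0.94 and the others one of -0.05. Both subsets were defined with the same factors, which are low in control replicates 1 and 3. The split is thus partly built in, and its cause was not tested. Sets of regions with fewer carriers showed it alike (-1.05 to -0.98 in those steadier by share of total). Scaled by totals alone, which shifts the median of all regions to 0.75, the median of members was 0.73. Without control replicates 1 and 3 it was 0.06, against 0.02 over all regions. The sign of the members' median thus depended on the scale and on these control libraries, and it moved together with the median of all regions.

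**Figure D4:**
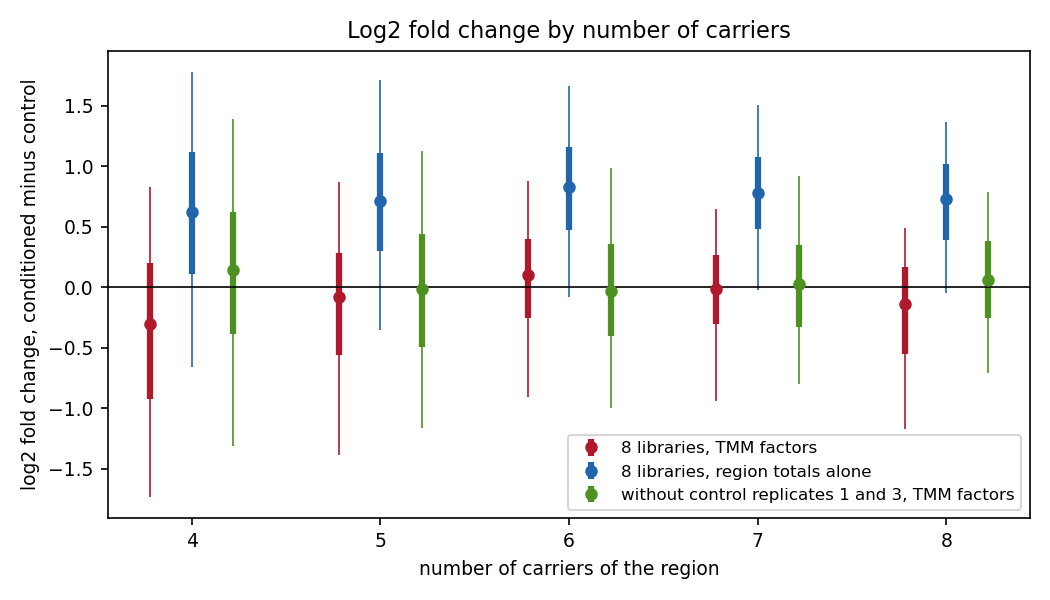
Log2 fold changes (conditioned over control) are shown by number of carriers, as median (point), quartiles (thick bar) and 5th to 95th percentile (thin bar) over regions, for the fit with TMM factors, with region totals alone and without control replicates 1 and 3. With 8 carriers the medians were -0.14, 0.73 and 0.06, and every thick bar of the TMM fit spans 0.

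Regions with the smallest p are given by their values, and none of them passed the adjusted threshold. The member with the smallest p on the higher side was chr18:38456037-38456781 (744 bp, mean z 95.8). It had 15.0, 8.68, 10.5 and 6.71 CPM in control and 11.1, 67.8, 15.8 and 19.5 CPM in conditioned libraries. Conditioned replicate 2 was far above all others, and the groups overlapped at conditioned replicate 1. The means were 10.2 ± 3.56 and 28.5 ± 26.4 CPM (SD, n = 4 each). The log2 fold change was 1.48 (SE 0.53; edgeR unadjusted p = 0.0141, adjusted p = 0.605), 2.39 by totals and 0.60 without conditioned replicate 2.

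A pair of nearby members on chromosome 8 had groups that did not overlap in CPM with TMM factors. At chr8:72404072-72407458 (3386 bp, 15 strong peaks), control libraries had 33.4, 34.3, 35.2 and 25.5 CPM and conditioned libraries 46.4, 84.9, 46.7 and 47.8 CPM. The means were 32.1 ± 4.44 and 56.5 ± 19.0 CPM (SD, n = 4 each). The log2 fold change was 0.81 (SE 0.37; edgeR unadjusted p = 0.0412, adjusted p = 0.634). At chr8:72314972-72315758, control libraries had 9.93, 18.1, 14.6 and 16.2 CPM and conditioned libraries 20.7, 48.6, 18.9 and 19.6 CPM. Here the log2 fold change was 0.87 (SE 0.41; edgeR unadjusted p = 0.0502, adjusted p = 0.638). In both regions conditioned replicate 2 was again the highest, and without it the estimates were 0.55 and 0.43. By totals they were 1.60 and 1.47, but by share of the library total the groups overlapped in both. At chr8:72404072, control replicate 2 held 0.00499% and conditioned replicate 1 held 0.00496%. At chr8:72314972 these libraries held 0.00263% and 0.00221%.

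The other members with a small p on the higher side were chr19:5455816-5457644 and chr17:65961217-65963610. The first had 15.4, 9.64, 13.6 and 21.6 CPM in control and 17.6, 62.1, 21.9 and 18.6 CPM in conditioned libraries, a log2 fold change of 1.00 (SE 0.46) that was 1.76 by totals and 0.37 without conditioned replicate 2. The second had 11.9, 16.9, 18.4 and 15.2 CPM in control and 22, 33.4, 18.2 and 25.3 CPM in conditioned libraries, a log2 fold change of 0.67 (SE 0.36) that was 1.41 by totals. Groups overlapped in both. Conditioned replicate 2 was the highest library in all 5 members with the smallest p on this side.

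On the lower side, the member with the smallest p was chr13:120276369-120279315 (2946 bp, mean z 57.8). It had 30.5, 12.7, 165 and 11.5 CPM in control and 11.9, 10.7, 11.0 and 10.1 CPM in conditioned libraries. Control replicate 3 stood far above the others, and control replicates 2 and 4 were close to the conditioned libraries. The log2 fold change was -2.33 (SE 0.70; edgeR unadjusted p = 0.00460, adjusted p = 0.605). It was -0.77 without control replicate 3 and -0.16 without control replicates 1 and 3.

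The narrow region chr12:67800844-67801277 (433 bp, mean z 574) had 1942, 94.6, 1488 and 377 CPM in control and 66.9, 305, 194 and 68.2 CPM in conditioned libraries. Control replicates 1 and 3 were highest, and control replicate 2 was among the conditioned libraries. The log2 fold change was -2.62 (SE 0.81; edgeR unadjusted p = 0.00518, adjusted p = 0.605), -1.15 by totals and -0.58 without control replicates 1 and 3. This was the member that DESeq2 called (adjusted p = 0.0480).

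The next were chr4:152526948-152527392, chr14:122967980-122968435 and chr8:56200008-56200641, of 444, 455 and 633 bp. At chr4:152526948, control libraries had 167, 41.9, 111 and 83.5 CPM and conditioned libraries 52.0, 49.6, 30.3 and 19.1 CPM, a log2 fold change of -1.42 (SE 0.47) that was -0.38 by totals and -0.74 without control replicates 1 and 3. At chr14:122967980, control libraries had 55.0, 14.4, 42.4 and 8.50 CPM and conditioned libraries 15.2, 11.0, 8.74 and 5.96 CPM (-1.56, SE 0.54; -0.35 by totals and -0.18 without control replicates 1 and 3). At chr8:56200008, control libraries had 38.8, 16.3, 23.9 and 11.4 CPM and conditioned libraries 14.2, 8.34, 8.73 and 6.35 CPM (-1.26, SE 0.44; -0.24 by totals and -0.57 without those libraries). In all 5 members on the lower side, control replicates 1 and 3 were the highest libraries and the groups overlapped. Their factors of 0.332 and 0.509 raise the CPM of these libraries, and the part of the scaling in these values was not tested further.

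**Figure D5:**
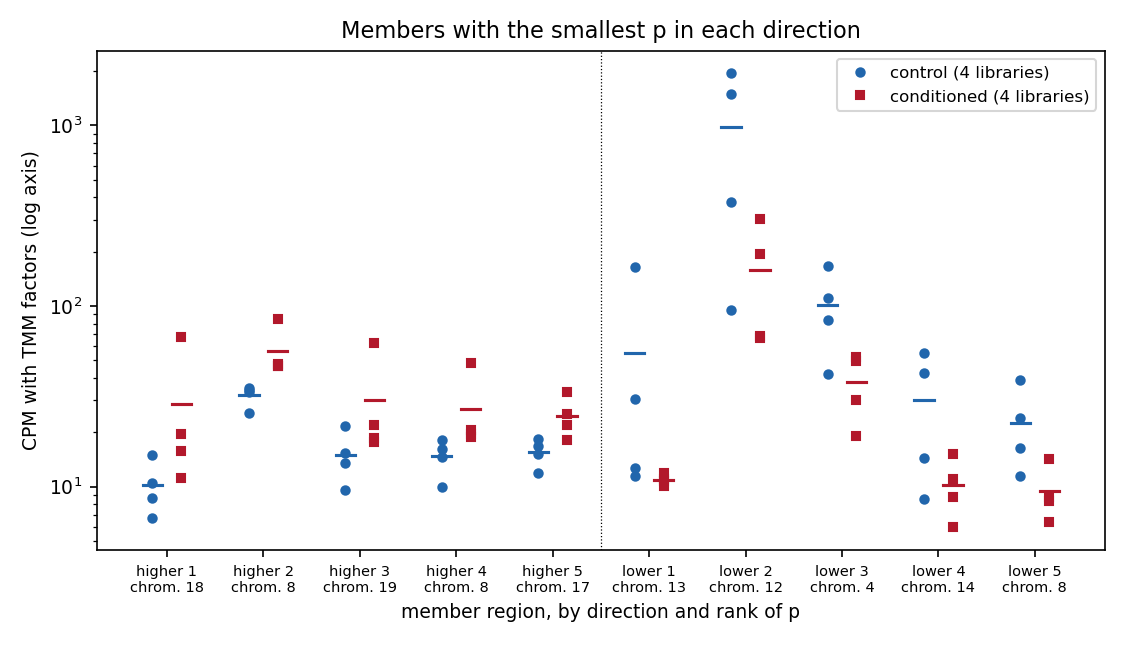
CPM with TMM factors (log axis) is shown for each library of the 5 members with the smallest p on the higher side and the 5 on the lower side, in order of p, with group means as lines. One conditioned library, replicate 2, is highest in each higher member, as with 67.8 CPM at the first, and the control libraries of the lower members are spread widely, from 11.5 to 165 CPM at the first.

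In CPM with TMM factors, groups did not overlap in 6 members on the higher side (1.11%, against 1.50% over the table). On the lower side there were 8 (1.48%, against 0.902%). By share of the library total, the groups overlapped in every one of these members. The higher ones had log2 fold changes of 0.43 to 0.87, and the lower ones of -1.0 to -0.64. Without control replicates 1 and 3 these ranges were 0.35 to 0.90 and -0.86 to -0.51. By totals the higher ones ran from 1.23 to 1.60 and the lower ones from -0.13 to 0.24. An example chosen after its values were seen is chr12:92827327-92829574, with 14.4, 15.4, 15.4 and 15.3 CPM in control and 6.64, 8.47, 10.5 and 9.37 CPM in conditioned libraries. The control libraries agreed closely there, yet the log2 fold change of -0.79 (SE 0.35; edgeR unadjusted p = 0.0410) had an adjusted p of 0.634 and was 0.04 by totals. Another chosen in the same way is chr7:73984147-73985563, with 17.7, 13.4, 18.9 and 18.4 CPM in control and 9.30, 8.74, 9.25 and 11.1 CPM in conditioned libraries, a log2 fold change of -0.83 (SE 0.35; edgeR unadjusted p = 0.0302, adjusted p = 0.613). Its estimate was -0.74 without control replicates 1 and 3 and 0.08 by totals.

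On totals, edgeR called chr17:39979506-39984346, whose shares are given above, with a log2 fold change of 0.94 (adjusted p = 3.61e-05), where TMM factors gave -0.05. It called the tallest member, chr2:98505835-98507726, with -0.09 (adjusted p = 5.08e-06). It also called chr8:125593958-125594404 with -2.66 (adjusted p = 1.91e-59) and chr8:128242572-128243008 with -1.60 (adjusted p = 4.18e-17), the members in which control replicate 3 stood apart. Without control replicates 1 and 3, in the TMM fit, the estimates of this last pair were 1.27 and -0.14. All 4 were among the 50 regions with the most reads. With TMM factors, their adjusted p in the edgeR test ran from 0.605 to 0.992. The groups overlapped in each of them. At chr8:125593958 the control shares averaged 0.783%, and their SD of 1.49 was larger than this mean. The small adjusted p on totals thus cannot be read as a measure of variation between animals, and no change is concluded from them.

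The members together held 62.6%, 58.0%, 63.0% and 59.2% of the counts in control and 60.2%, 57.9%, 57.7% and 54.9% in conditioned libraries, 60.7% ± 2.48 against 57.7% ± 2.14 (SD, n = 4 each). Nearly all of this came from the 26 members among the 50 regions with the most reads. The 514 others held 0.564%, 1.45%, 0.738% and 1.05% in control and 1.25%, 1.28%, 1.54% and 1.89% in conditioned libraries, 0.949% ± 0.387 against 1.49% ± 0.298 (SD, n = 4 each). The groups overlapped, and the difference of 0.544 points was 0.246 without control replicates 1 and 3. Of the counts outside the 50 highest regions, these 514 members took 16.8%, 11.2%, 13.5% and 10.7% in control and 13.6%, 10.5%, 11.5% and 10.8% in conditioned libraries, with control replicate 1 highest. The direction between groups was thus opposite for the 2 denominators, and no test was run on shares since peak heights of the same libraries chose the members.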

How the data were processed

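Sono-seq libraries of 8 hippocampus samples (4 control, 4 conditioned) were used as deposited. Raw read counts per region and sample were deposited by the authors without normalisation, and the region table and peak lists hold z scores, a score of the authors of unknown scaling. Bowtie2 and mm9 are named in the submitters' processing notes. How peaks were called, how reads were counted and whether duplicates or reads with several alignments were kept is not given in the sources used here. The number of carriers, a deposited value, was recovered for all 11304 regions by counting libraries with a peak at z of 30 or more, and the deposited mean z equalled the mean over those peaks within 1e-06. Region identifiers matched between both tables in all 11304 cases.

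The members and lists were chosen with earlier results of these data known. Counts were fitted over the whole table with edgeR 4.0.16 in R 4.3.3, using TMM factors, 1 term for group and a two-sided quasi-likelihood test (Benjamini-Hochberg adjustment, threshold 0.05); the SE is the size of the fold change over the square root of F, and the fit was tested on simulated data. Filtering by filterByExpr (count of 10, total of 15) took out 0 regions. Log2 CPM used a prior count of 2. Totals per library ran from 36786183 to 83233550 counts, and the common dispersion was 0.281.

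Regions were named by a rule: the 5 smallest p in each direction, the 10 highest mean z, the 5 with the most counts, the 5 widest and narrowest, the 5 smallest and largest SD, and the 3 nearest the limit on either side. Alternatives were other scalings and filters, DESeq2 1.42.0, limma 3.58.1 (voom), a replicate block, a fit without the 50 highest regions and libraries left out. Gene and sequence classes need mm9 and were not analysed here.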

Additional observations from a re-analysis of the deposited data

Results flagged for a closer look

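In 92 groups of 4 values, most of them from the named members, the distance of an extreme library from the next one was divided by the group's range (Dixon's 95% critical value). Of these, 9 groups passed; chance gives about 1 in 20 for independent values, and these share 8 libraries and include members picked for small p or large SD. Conditioned replicate 2 stood apart in 6 of the 9, control replicate 3 in 2 and conditioned replicate 4 in 1.

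Conditioned replicate 2 was highest of its group at chr18:38456037 (67.8 CPM, others 11.1 to 19.5), chr8:72404072 (84.9 CPM, others 46.4 to 47.8), chr19:5455816 (62.1 CPM, others 17.6 to 21.9), chr8:72314972 (48.6 CPM, others 18.9 to 20.7) and chr8:36197741 (129 CPM, others 6.48 to 21.7). It was lowest at the steadiest member, chr5:33970943, with 14.0 CPM against 15.9 to 16.4. Control replicate 3 was highest of its group at chr13:120276369 (165 CPM, others 11.5 to 30.5) and at chr8:125593958 (59362 CPM, others 141 to 764). Conditioned replicate 4 was highest at the steady member chr5:30439627 (19.9 CPM, others 16.3 to 16.8).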

How the results depend on the processing

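The count of 0 called members became 4 with region totals alone (1 higher, 3 lower) and 1 with DESeq2's Wald test (lower; 1 member had no adjusted p); it was 0 in the other 18 settings, where the smallest adjusted p over members ran from 0.254 to 0.989. The 42 members at unadjusted p below 0.05 became 25 with upper-quartile factors, 23 with region totals alone (18 higher, 5 lower), 65 with DESeq2 (2 higher, 63 lower) and 18 without control replicates 1 and 3 together. Leaving out 1 library gave 14 (without conditioned replicate 4) to 68 (without control replicate 2), and 67 and 20 without control replicates 4 and 3, 19 and 16 without conditioned replicates 3 and 2. The median log2 fold change of -0.14 turned to 0.73 with region totals alone and to 0.06 without control replicates 1 and 3; without 1 library it ran from -0.20 to -0.09. The difference in share of 0.544 points turned to -1.44 as a share of the counts outside the 50 highest regions and was 1.50 for regions with 7 carriers; without 1 library it ran from 0.410 to 0.710. The median shift of 351 bp ran from 284 to 348 bp without 1 library. The SD of 0.51 was 0.93 with region totals alone and 0.48 to 0.54 without 1 library. The causes were not tested. The 10 members named for a small p kept their direction in all 179 alternative values, of which 1 newly passed (DESeq2, chr12:67800844). They were picked from the same counts that the alternatives refit, so a kept sign tests little. Sizes did change, as from -2.33 to -0.16 at chr13:120276369 without control replicates 1 and 3. No filter and filterByExpr kept the same regions, a mean count of at least 100 took out 9 regions and 0 members, and asking strong peaks to lie wholly inside changed no member, so these test little or nothing. Scalings and libraries left out for the SD, and the share without control replicates 1 and 3, were chosen after seeing the data.

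The replicate numbers are shared between groups, but no label says that a number marks a day or a pair. Deviations from the group means of same-numbered libraries correlated at 0.161, 0.0482, -0.063 and 0.272 for numbers 1 to 4. Control replicates 1 to 4 correlated best with conditioned replicates 3 (0.284), 4 (0.258), 1 (0.078) and 4 (0.272). The main fit did not take the numbers as pairs, and these correlations cannot exclude pairing by day. With a replicate block, 0 members were called, 37 had an unadjusted p below 0.05 (1 higher, 36 lower) and the median log2 fold change was -0.10. The median member had 336 reads in control replicate 1 and 2662 in conditioned replicate 4, libraries with totals of 66135693 and 83233550 counts.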
